A study of Mus musculus with 10 samples.

Results

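The Pax family genes of the mouse, Pax1 to Pax9, were followed through ChIP-seq libraries of H3K27me3, the trimethyl mark on lysine 27 of histone H3, and of EZH2, the enzyme that places it. All 9 members have a row in every count table, among 24500 genes, and were taken by symbol. Pax genes encode transcription factors that bind DNA through a paired domain and that direct the formation of organs and cell types in the embryo. They fall into subgroups by sequence: Pax1 and Pax9, which act in the vertebral column and the pharyngeal pouches; Pax2, Pax5 and Pax8, which act in the kidney, midbrain, B cells and thyroid; Pax3 and Pax7, which act in the neural crest and muscle; and Pax4 and Pax6, which act in the pancreas and the eye. In ES cells most developmental regulators of this kind are silent, and their promoters carry H3K27me3 placed by Polycomb repressive complex 2 (PRC2), whose catalytic subunit is EZH2.

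The study compared control cells of the mouse ES line E14, with the strain name 12910la and labelled wild-type, with E14 cells labelled as carrying a knockout of exon 14 of Ezh2, called ex14D below. By the study's methods, exon 14 was disrupted with CRISPR-Cas9, so that only the isoform spliced without that exon (ex14D-EZH2) remains functional, and the cells were grown from transfected E14 colonies. Both genotypes were sampled as ES cells, and the labels give no treatment. There were 2 H3K27me3 libraries, 2 EZH2 libraries and 1 library of input chromatin for each genotype. How many colonies the libraries stand for is not given in the labels, so the p-values measure the spread between these libraries, which may be technical.

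Reads on gene rows numbered 594289 to 1450937 in the H3K27me3 libraries, 409371 and 416778 in the inputs and 13628137 to 18403892 in the EZH2 libraries. H3K27me3 and input reads were counted in a 1 kb window at each promoter, whereas EZH2 counts follow the length of the gene, so EZH2 was not set against input and is compared between genes per kb. Replicates were farther apart than counting noise alone gives (chi-square over degrees of freedom from 1.48 to 3.95, with the EZH2 ex14D pair highest). Levels are given as counts per 1000000 reads on gene rows (CPM). Changes are log2 fold changes of ex14D over control from edgeR with TMM scaling, which centres the bulk of genes near 0. For H3K27me3 the median of all genes was -0.02 with TMM and -0.47 with library size alone, so that a fold change from edgeR lies above the ratio of the CPM values. The promoters of 10 genes that are active in ES cells served as a check of the cells, read as H3K27me3 over input. In control, 4 of them (Nanog, Zfp42, Tdgf1 and Utf1) were below input with TMM, as were 12.8% of all promoters tested, and 1, Klf4, was above it. In ex14D, Tdgf1 was below, as were 6.17% of promoters, and Klf4 was above. All except Klf4, 9 of the 10, had a mean log2 value over input below 0 in each genotype with library size alone, which was not tested. Most promoters are below 0 in this measure, so the count does not set these 10 apart. Of all promoters, 24.6% were at least as high as -0.04 in control and 31.9% at least as high as -1.27 in ex14D, the values of Pax4.

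The promoters of all 9 genes lie on 6 chromosomes, and 7 members have a single curated start. In GRCm38, Pax1 lies at chr2:147364994-147375049 on the forward strand, Pax6 at chr2:105668896-105698410 on the forward strand and Pax8 at chr2:24420551-24475599 on the reverse strand. Chromosome 4 carries Pax5 (chr4:44524748-44710694) and Pax7 (chr4:139738081-139832968), both on the reverse strand. Pax2 is at chr19:44746601-44838269, Pax9 at chr12:56695471-56712822, Pax3 at chr1:78101267-78197136 and Pax4 at chr6:28442334-28449340. Pax2 has 3 annotated starts up to 44756906 and Pax6 has 4 up to 105682463, and the counts refer to the first of them. The antisense gene Pax6os1 starts inside Pax6 at 105670330, and ChIP reads carry no strand, so reads in the overlap cannot be credited to either gene. The 1 kb promoter windows of Pax6 and Pax6os1 do not overlap.

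The promoter sequences of 4 members are shown because they frame the results below: Pax1 had the largest rise in H3K27me3 counts, Pax6 had the largest fall in EZH2 counts among the members with EZH2 reads, and Pax5 and Pax8 had lower EZH2 counts with no call for H3K27me3. Each is the 250 bases before the RefSeq start in GRCm38, written in the direction of transcription, with every CpG in capitals, the dinucleotide that is dense where PRC2 typically settles.
Pax1, chr2:147364744-147364993, forward strand: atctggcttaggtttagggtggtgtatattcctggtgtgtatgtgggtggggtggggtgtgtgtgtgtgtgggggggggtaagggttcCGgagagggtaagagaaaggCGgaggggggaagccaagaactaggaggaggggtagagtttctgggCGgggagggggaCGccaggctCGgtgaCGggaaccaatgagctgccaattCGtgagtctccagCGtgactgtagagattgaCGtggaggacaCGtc
Pax6, chr2:105668646-105668895, forward strand: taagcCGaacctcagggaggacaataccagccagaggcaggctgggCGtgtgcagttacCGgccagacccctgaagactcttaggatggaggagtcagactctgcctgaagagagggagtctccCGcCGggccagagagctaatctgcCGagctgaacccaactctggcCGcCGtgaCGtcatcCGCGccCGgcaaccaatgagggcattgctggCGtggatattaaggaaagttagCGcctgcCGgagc
Pax5, chr4:44710695-44710944, reverse strand: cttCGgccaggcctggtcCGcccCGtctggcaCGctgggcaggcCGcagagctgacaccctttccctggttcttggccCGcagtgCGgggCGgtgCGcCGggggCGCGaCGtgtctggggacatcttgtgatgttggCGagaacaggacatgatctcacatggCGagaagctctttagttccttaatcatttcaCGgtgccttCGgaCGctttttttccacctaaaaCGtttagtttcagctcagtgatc
Pax8, chr2:24475600-24475849, reverse strand: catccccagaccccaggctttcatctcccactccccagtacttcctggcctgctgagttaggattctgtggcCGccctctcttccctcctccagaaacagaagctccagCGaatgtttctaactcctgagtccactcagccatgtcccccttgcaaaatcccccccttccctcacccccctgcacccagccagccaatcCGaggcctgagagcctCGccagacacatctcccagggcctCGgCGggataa
The motif searched was CG, which reads the same on both strands. Pax1 holds 10 of them, Pax6 15, Pax5 19 and Pax8 6. Of 32851 promoters in the reference table, 37.8% hold at least as many as Pax1, 27.3% as Pax6, 19.7% as Pax5 and 50.4% as Pax8. The table matched 7 members. Pax9 has 7 CpGs before its start, Pax7 has 13, and Pax2 has 5 before the first start, and 20 and 25 before the later ones. Neither Pax3 nor Pax4 has an entry. Whether these CpG counts go with the changes in H3K27me3 or EZH2 counts was not tested.

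H3K27me3 covered the whole family in control except Pax4. Pax2, a regulator of kidney and midbrain, had 784 and 507 CPM in the control libraries against 48.9 CPM in the input. Pax7, a regulator of muscle stem cells, had 671 and 456 CPM against 48.9 CPM. Pax9, needed for teeth and pharyngeal pouches, had 421 and 386 CPM against 39.1 CPM. In each of these, every H3K27me3 library stood far above the input. Expressed as (CPM + 1) over (input CPM + 1) and averaged over the control libraries on a log scale, the order was Pax2 (12.7-fold), Pax7 (11.1-fold), Pax9 (10.1-fold), Pax6 (8.64-fold), Pax3 (7.31-fold), Pax1 (6.75-fold), Pax5 (4.93-fold), Pax8 (3.95-fold) and Pax4 (0.971-fold). Pax2, Pax7, Pax9 and Pax6 overlap one another in single libraries, since Pax2 spans 10.2- to 15.7-fold, Pax7 9.16- to 13.5-fold, Pax9 9.66- to 10.5-fold and Pax6 6.77- to 11.02-fold. Pax3 (7.16- and 7.46-fold) lies within the range of Pax6, and Pax1 (6.36- and 7.16-fold) overlaps it. Pax5 and Pax8 lie below all of these without overlap, and Pax4 is at the level of input. Each fold rests on a single input library per genotype with 13 to 33 reads per member. Among all promoters, 0.535% were at least as high as Pax2 in control, 2.95% as Pax1, 6.54% as Pax8 and 24.6% as Pax4. The share of cells with the mark and the amount of the mark per cell cannot be told apart in these libraries.

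In the test against input, all 9 members were above input in control (adjusted p under 0.05), where 25.2% of 21261 promoters were. In ex14D 8 members were, against 20.9% of promoters, and Pax4 did not pass (log2 0.61, adjusted p = 0.378). TMM places the median of all promoters at -0.08 in control and -0.24 in ex14D. With library size alone these medians were -1.63 and -2.12, Pax4 was at -0.07 in control, and Pax4 in ex14D turned to -1.27 with an adjusted p of 0.0167. Its call as enriched in control rests on the scaling. With library size alone Pax8 in ex14D was at 0.65 and no longer past the threshold (adjusted p = 0.0847), while the other 7 members were above input in both genotypes under each scaling and test run.

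**Figure D1:**
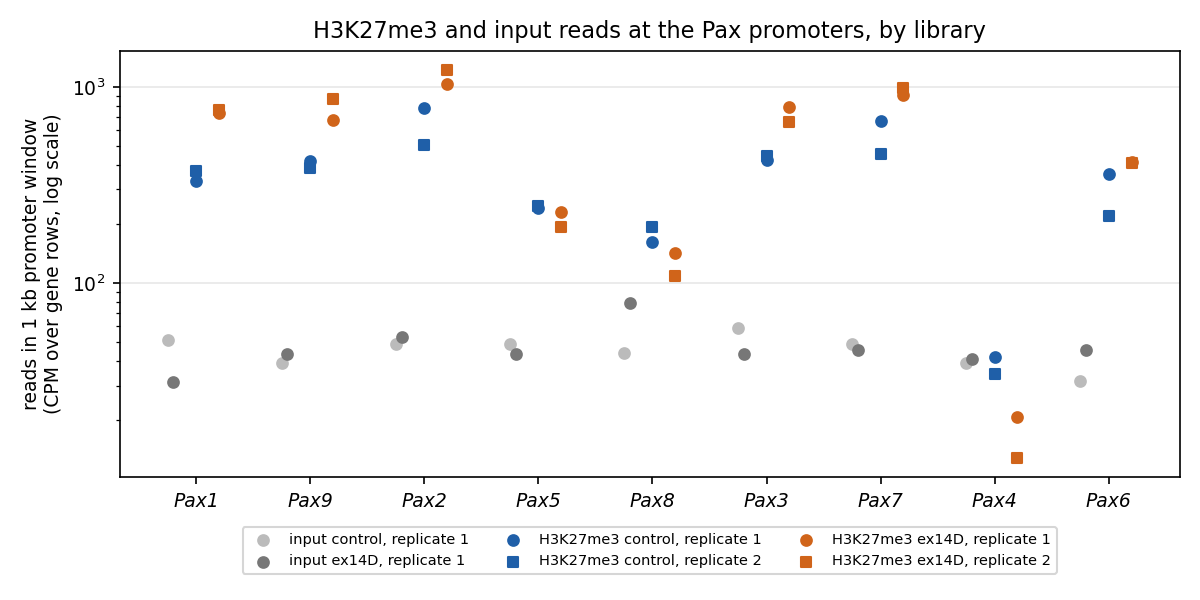
H3K27me3 and input reads in the 1 kb promoter window of each Pax gene, in CPM on a log axis. Each point is 1 library. The ex14D points (orange) lie above the control points (blue) at Pax1, Pax9, Pax2, Pax3, Pax7 and Pax6, with 740 and 765 CPM against 331 and 373 CPM at Pax1, and the Pax4 points lie near (control) or under (ex14D) the input points (grey). The share of all promoters with both ex14D points above both control points was not counted.

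H3K27me3 counts, as a share of each library, were higher in ex14D at 6 of the 9 Pax promoters and lower at 0. Such counts are relative, and with no spiked-in reference described they give neither the total H3K27me3 of the cells nor its absolute amount at a promoter. Over all 14883 promoters tested, 5.85% were higher and 3.19% were lower. The 6 were Pax1, Pax9, Pax2, Pax3, Pax7 and Pax6, and the median log2 fold change of the members was 1.19 against -0.02 for all promoters. The 3 others were Pax5, Pax8 and Pax4, the members with the lowest fold over input in control.

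In the Pax1 and Pax9 subgroup both members rose. Pax1 had 331 and 373 CPM in control and 740 and 765 CPM in ex14D. Both ex14D libraries lay above both control libraries, and the gap was many times the distance between replicates. The log2 fold change of Pax1 was 1.54 (standard error 0.20, adjusted p = 8.62e-06), and 1.25% of promoters tested had one at least as high. Pax9 had 421 and 386 CPM in control and 678 and 863 CPM in ex14D. The groups of Pax9 did not overlap, although its ex14D libraries were farther apart than its control libraries. Its log2 change was 1.39 (standard error 0.21, adjusted p = 4.43e-05).

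In the Pax2, Pax5 and Pax8 subgroup the members differed in their calls. Pax2 had 784 and 507 CPM in control and 1030 and 1218 CPM in ex14D. Its groups did not overlap, with control replicate 1 nearest to ex14D. The log2 fold change of Pax2 was 1.25 (standard error 0.22, adjusted p = 0.000314). Pax5, which sets the identity of B cells, had 242.3 and 247.5 CPM in control and 229.5 and 192.3 CPM in ex14D. Its ex14D libraries were slightly under its control libraries in CPM, and after TMM scaling the log2 value of the difference was 0.23 (standard error 0.20, adjusted p = 0.587). Pax8, which acts in the thyroid and kidney, had 162 and 193 CPM in control and 142 and 109 CPM in ex14D. On the log2 scale the difference at Pax8 was -0.06 (standard error 0.23, adjusted p = 0.928). The Pax8 input had 18 reads in control and 33 in ex14D, so that its fold over input was 3.61 and 4.32 in control but 1.78 and 1.37 in ex14D. That fold moved with an input library which has no replicate, and the part of the input in it was not tested. The difference between Pax2 and the other members of the subgroup was not tested.

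Pax3 and Pax7, which mark neural crest and muscle progenitors, both rose. Pax3 had 426 and 444 CPM in control and 794 and 662 CPM in ex14D. Its control libraries were close together and both ex14D libraries lay above them. The log2 fold change of Pax3 was 1.19 (standard error 0.20, adjusted p = 0.000152). Pax7 had 671 and 456 CPM in control and 904 and 987 CPM in ex14D. Here the control libraries were the ones spread apart, and the groups did not overlap. The log2 fold change of Pax7 was 1.20 (standard error 0.21, adjusted p = 0.000353).

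Pax6, the regulator of eye and forebrain, had 360 and 221 CPM in control and 414 and 410 CPM in ex14D. Its ex14D libraries were nearly equal and lay only slightly above control replicate 1. The log2 change at Pax6 was 0.97 (standard error 0.22, adjusted p = 0.00465), the smallest of the 6 calls. With library size alone it was 0.52 and no longer past the threshold (adjusted p = 0.0923). The window of Pax6os1, whose start lies inside Pax6, had 385 and 329 CPM in control and 567 and 617 CPM in ex14D, with a log2 fold change of 1.18 (adjusted p = 0.000203). Pax4, which acts in the beta cells of the pancreas, had 42.1 and 34.1 CPM in control and 20.7 and 12.8 CPM in ex14D, from 16 to 32 reads per library. Its ex14D libraries were the lower ones, with a log2 fold change of -0.70 (standard error 0.36, adjusted p = 0.272). With library size alone Pax4 was at -1.15 and counted as lower (adjusted p = 0.0307), so the split of calls became 5 higher and 1 lower.

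Control replicate 2 decided several of these calls, and without it calls also became fewer over all promoters. That fit leaves 1 control library, so its spread comes from the ex14D pair. Without control replicate 2, the count fell from 6 to 2, with Pax1 and Pax3 past the threshold. Pax9 was then at 1.28 (adjusted p = 0.0532), Pax2 at 0.92 (adjusted p = 0.0763), Pax7 at 0.90 (adjusted p = 0.067) and Pax6 at 0.59 (adjusted p = 0.169). All 6 stayed past the threshold without control replicate 1 and without ex14D replicate 1, and without ex14D replicate 2 Pax6 missed it (adjusted p = 0.0503). When the input libraries entered the model and the change over input was tested, 0 members passed, and 27 of 21261 promoters were higher. Pax1 came nearest, with a log2 value of 2.15 (adjusted p = 0.0647), and the others of the 6 had values from 0.34 at Pax6 to 1.52 at Pax3.

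**Figure D2:**
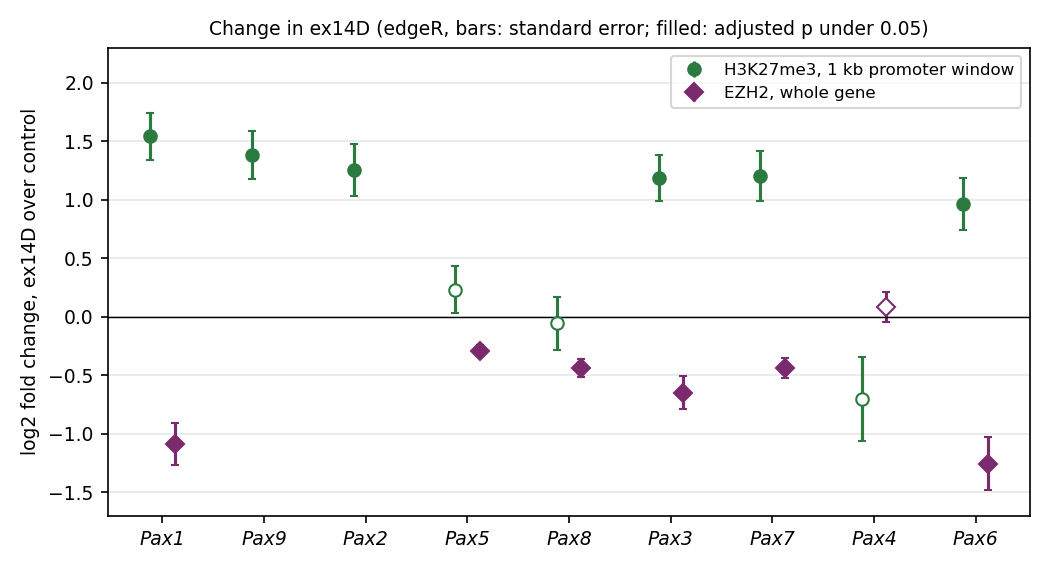
Log2 fold change of ex14D over control for each Pax gene, for H3K27me3 in the promoter window (circles) and EZH2 over the gene (diamonds), from edgeR. Bars are standard errors and filled symbols have an adjusted p under 0.05. The H3K27me3 values run from -0.70 at Pax4 to 1.54 at Pax1 and the EZH2 values from -1.25 at Pax6 to 0.09 at Pax4, and Pax2 and Pax9 have no EZH2 value.

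EZH2 counts went the other way. Of the 7 members with EZH2 reads, 6 were lower in ex14D and 0 were higher, where 7.88% of 13401 genes tested were lower and 0.0522% were higher. The median log2 fold change of the 7 was -0.44 against 0.02 for all genes. Pax4 was the member with no call. Pax2 and Pax9 are listed at 0 in all 4 EZH2 count columns. They lie in runs of genes that are all listed at 0, with 265 genes over 24.8 Mb on chromosome 19 and 662 genes over 83.2 Mb on chromosome 12, and those zeros cannot be read as an absence of EZH2 at Pax2 or Pax9.

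Of the 7 members with EZH2 reads, Pax1 had the densest signal, at 16.6 and 15.8 CPM per kb of gene in control and 9.62 and 6.09 CPM per kb in ex14D. Its libraries did not overlap and ex14D replicate 2 was the lowest. On the log2 scale the change at Pax1 was -1.09 (standard error 0.18, adjusted p = 0.0115), or 2.13-fold lower. Pax6 had 6.64 and 7.49 CPM per kb in control and 3.93 and 2.19 CPM per kb in ex14D. The ex14D libraries of Pax6 were both well under control and stood apart from each other. The change at Pax6 was -1.25 (standard error 0.23, adjusted p = 0.016), and 0.851% of genes tested had one at least as low. Reads that fall on both Pax6 and Pax6os1 were not assigned to a gene, so the value covers the part of Pax6 outside the overlap. Pax6os1 itself had a log2 fold change of -0.33 for EZH2 (adjusted p = 0.0204).

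Pax7 had 6.89 and 7.19 CPM per kb in control and 5.89 and 4.81 CPM per kb in ex14D, and Pax3 had 3.27 and 2.96 against 2.39 and 1.70. In both, the ex14D libraries lay under the control libraries. Their log2 fold changes were -0.44 for Pax7 (standard error 0.08, adjusted p = 0.02) and -0.65 for Pax3 (standard error 0.14, adjusted p = 0.0314). Pax8 had 1.85 and 1.84 CPM per kb in control and 1.52 and 1.29 CPM per kb in ex14D. Pax5, the longest member at 186 kb, had 1.44 and 1.49 CPM per kb in control and 1.28 and 1.19 CPM per kb in ex14D. These were smaller falls with tight replicates, of -0.44 for Pax8 (standard error 0.08, adjusted p = 0.016) and -0.29 for Pax5 (standard error 0.05, adjusted p = 0.0107). Counts were taken over the whole gene, so a change limited to the promoter of a gene as long as Pax5 is diluted in this measure. Pax4 had 0.947 and 1.02 CPM per kb in control and 1.03 and 1.12 CPM per kb in ex14D, next to a median of 0.969 CPM per kb over the genes with a read in control. Its libraries showed no lower level in ex14D (log2 0.09, standard error 0.13, adjusted p = 0.829).

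**Figure D3:**
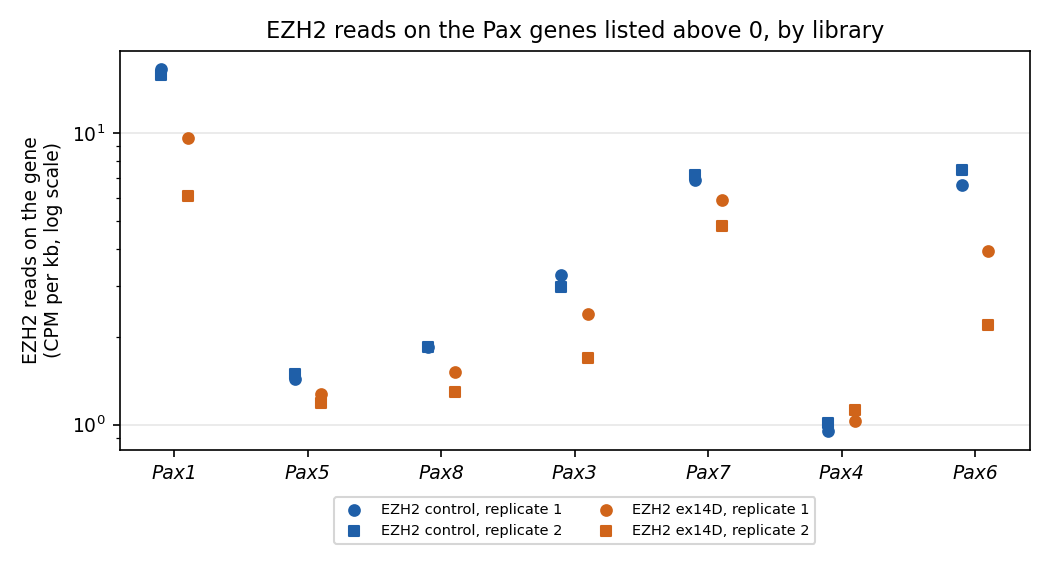
EZH2 reads on the 7 Pax genes listed above 0, in CPM per kb of gene on a log axis. Each point is 1 library. At every gene except Pax4 both ex14D points (orange) lie under both control points (blue), and ex14D replicate 2 (square) lies under ex14D replicate 1. The share of all genes with either order was not counted.

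In control the order of EZH2 per kb among these 7 was Pax1, Pax6, Pax7, Pax3, Pax8, Pax5 and Pax4. It is taken over the whole gene and is not an order of the promoters. EZH2 domains covered 99.5% of Pax1 in each control library, but 8.44% and 10.1% of Pax5. The part of this coverage in the order was not tested. Pax6 and Pax7 did not differ beyond their spread, and every other pair of neighbours in that order was separate in both libraries. Of genes with a read, 1.55% were at least as high as Pax1 and 47.1% as Pax4. In 6 of the 7 members ex14D replicate 2 was under ex14D replicate 1. The share of all genes with that order was not counted, and this pair was the farthest apart over all genes (chi-square over degrees of freedom 3.95). Without control replicate 1 or without control replicate 2, 0 members were called, as were 0 of all genes with edgeR, against 1372 and 1300 genes lower at an unadjusted p under 0.05. The spread then comes from the ex14D pair, the pair that differed most. Without ex14D replicate 1, and without ex14D replicate 2, the same 6 members were called. DESeq2 called 4 members lower and missed Pax5 (adjusted p = 0.229) and Pax6 (adjusted p = 0.0573).

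The intervals called by the authors show how far the mark and the enzyme spread from each promoter. A MACS2 broad peak of H3K27me3 covered the promoter of 8 members in all 4 libraries, against 15.1% of 24357 promoters. An EZH2 domain covered the same 8 in both control libraries (16.8% of promoters) and in both ex14D libraries (10.4%). Pax4 had neither at its promoter. Pax2 and Pax9 did have EZH2 domains, of 30 and 34 kb in control and 30 and 33 kb in ex14D at Pax2, and of 15 and 26 kb in control and 13 and 15 kb in ex14D at Pax9. EZH2 was thus called at these promoters although the count columns list the genes at 0.

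The H3K27me3 peaks were broad. At Pax3 the peak was 37.1 and 43.2 kb wide in control and 34.9 and 35.2 kb in ex14D. At Pax7 it was 36.3 and 37.6 kb in control and 39.7 and 38.0 kb in ex14D. The Pax3 peak was narrower in both ex14D libraries and the Pax7 peak was wider in both, each with a gap smaller than the distance between the control replicates. At Pax2 and Pax6 the peaks were 32.1 to 39.6 kb wide, and the control and ex14D widths overlapped at Pax6. Pax9 (23.1 to 25.6 kb), Pax5 (18.8 to 23.2 kb) and Pax1 (17.5 to 23.9 kb) had intermediate peaks. Pax8 had the narrowest, at 5.23 and 6.84 kb in control and 5.18 and 5.40 kb in ex14D. The peak covered all of Pax1 in the 4 libraries, whereas 7.22% to 14.9% of Pax8 lay in peaks. Pax4 had a peak over 13.3% of the gene in control replicate 1 and none in the other libraries.

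Fold enrichment of the peak at its promoter, as the peak caller gave it, varied strongly within a genotype at some members. At Pax1 it was 3.28 and 8.18 in control and 5.54 and 14.3 in ex14D, so the groups overlapped. At Pax7 it was 7.88 and 4.55 in control and 13.7 and 6.87 in ex14D, again with overlap. At Pax6 it was 10.1 and 7.64 in control and 25.9 and 13.99 in ex14D, with both ex14D values the higher. At Pax5, where the counts gave no call, it was 3.34 and 3.63 in control and 7.67 and 17.1 in ex14D. At Pax5 the fold enrichment was thus higher in both ex14D libraries, while the CPM in the promoter window was lower in both. The same held at Pax8, with 2.91 and 5.03 in control and 13.0 and 5.15 in ex14D. Replicates were closer at Pax2 (4.30 and 4.61 in control, 6.88 and 6.85 in ex14D) and Pax3 (4.08 and 3.77, then 5.82 and 6.09). At Pax9 the values were 3.18 and 2.53 in control and 4.60 and 3.23 in ex14D. Both ex14D values were the higher at these members too. The share of all peaks with both ex14D values the higher was not counted, so this order cannot be called particular to the Pax genes. What the peak caller used as its control is not given in the sources used here.

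The EZH2 domain over the promoter was narrower in both ex14D libraries than in both control libraries at 5 of the 8 members: Pax1, Pax5, Pax8, Pax3 and Pax6. Of the 2529 promoters with a domain in all 4 libraries, 44.3% showed this, so the members' share is not far from that of all such promoters. Widths come in steps of 1 kb. At Pax5 the domain was 15 and 20 kb wide in control and 6 kb in each ex14D library. At Pax3 it was 33 and 36 kb in control and 17 and 20 kb in ex14D. The H3K27me3 peak at Pax5, by contrast, was 20.8 and 18.8 kb wide in ex14D against 20.3 and 23.2 kb in control. At Pax6 the domain was 32 and 34 kb in control and 25 and 26 kb in ex14D. At Pax1 it was 16 and 17 kb in control and 15 and 14 kb in ex14D, and at Pax8 it was 4 and 5 kb in control and 3 kb in each ex14D library. These are small steps next to the resolution of the calls. At Pax7 the widths were 23 and 24 kb in control and 22 and 24 kb in ex14D, and they overlapped.

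**Figure D4:**
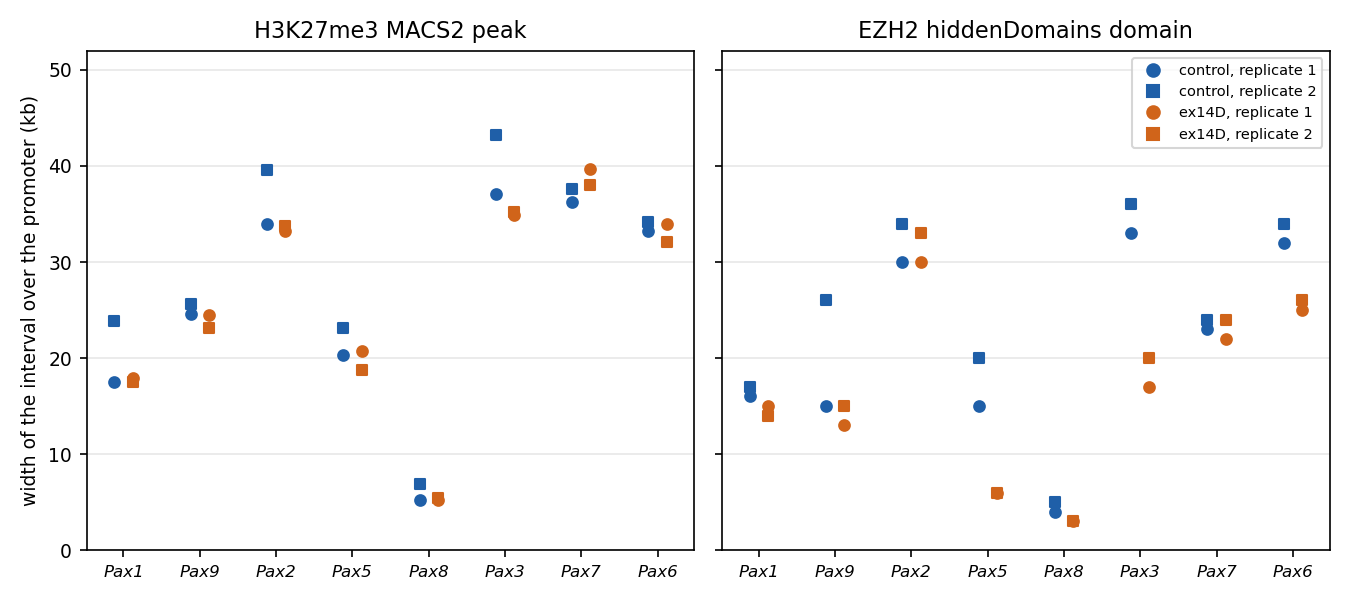
Width in kb of the H3K27me3 peak (left) and the EZH2 domain (right) over the promoter of each Pax gene, with 1 point per library. Pax4 has no interval and is left out. On the right, the ex14D domains of Pax5 are 6 kb wide against 15 and 20 kb in control, and on the left the Pax5 peaks are 18.8 to 23.2 kb wide in all libraries.

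The study tested Pax7 by ChIP-PCR, and its primers place the assay within the peak. They are shown because they place the assay on the genome, and its readout is not analysed here.
Pax7 forward primer: agcagaaagaggcgctgagag
Pax7 reverse primer: ctgagcccagaggttgcg
Matched to GRCm38, they amplify 111 bases at chr4:139833306-139833416, on the side upstream of the curated start, with the centre 393 bases from it. Predicted RefSeq transcripts start farther out and include the product in an exon. The product lies wholly inside the 1 kb window in which H3K27me3 was counted, and inside the H3K27me3 peak of all 4 libraries.

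The family was set beside its chromosomal neighbours. The nearest protein-coding gene on each side of a member gave 18 neighbours, of which 7 had an H3K27me3 peak over the promoter in all 4 libraries and 0 shared the peak of the Pax gene. These neighbours exclude genes that overlap a member, and they lay 3.71 kb (Fscn3 by Pax4) to 668 kb (Foxa2 by Pax1) away. The Pax6 peak was not its own, since it also covered the promoter of the overlapping antisense gene Pax6os1 in all 4 libraries. In control, 10 of the 18 were at or under input (mean log2 at most 0, library size alone). Most promoters are below 0 in this measure, since 24.6% of all promoters were at least as high as Pax4 at -0.04. Of 10 tested for H3K27me3, 4 were higher in ex14D and 0 lower. Around Pax1 both were, with log2 fold changes of 1.72 for Nkx2-2 (adjusted p = 3.67e-06), a regulator of the ventral neural tube, and 1.73 for Foxa2 (adjusted p = 4.5e-06), a regulator of endoderm and floor plate. Next to Pax9, Nkx2-9 was at 0.79 (adjusted p = 0.0129), and next to Pax8, the calcium channel gene Cacna1b was at 0.73 (adjusted p = 0.0333). Of 14 tested for EZH2, 3 were lower: Nkx2-2 (-0.91), Foxa2 (-0.60) and Sgpp2 next to Pax3 (-0.22). The neighbours without a peak were Prps1l3 by Pax9, Hif1an and Fam178a by Pax2, Melk and Zcchc7 by Pax5, Tas1r2 and Klhdc7a by Pax7, Fscn3 and Snd1 by Pax4 and Immp1l by Pax6, while Rcn1 by Pax6 had one in 2 libraries. Psd4 by Pax8 and Epha4 and Sgpp2 by Pax3 had a peak in all 4 libraries and no call for H3K27me3.

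Genes whose H3K27me3 and input values were most like those of a member were found by Euclidean distance over the log2(CPM + 1) of 6 libraries. They were Sox9 and Otx2 for Pax1 (distances 0.39 and 0.41), Sp8 and Evx1 for Pax9 (0.17 and 0.26), Tbx1 and Egr3 for Pax2 (0.21 and 0.22), and Bace2 and Rbp4 for Pax5 (0.12 and 0.14). For Pax8 they were Gucy2e and Synpo (0.21 and 0.25), for Pax3 Tbx4 and Col2a1 (0.24 and 0.35), and for Pax7 Egr3 and Hmx1 (0.35 and 0.35). For Pax4 they were Cmtm7 and Tbc1d2b (0.34 and 0.35), and for Pax6 Sall3 and Nell2 (0.41 and 0.51). Egr3 came up for both Pax2 and Pax7.

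Pax proteins work with the Six-Eya-Dach factors in the network that builds eye, ear, muscle and kidney. All 12 genes of that network have a row, and 8 had an H3K27me3 peak over the promoter in all 4 libraries. Of 10 tested for H3K27me3, 4 were higher in ex14D, with a median of 0.50. Six3, an eye and forebrain regulator, had 606 and 552 CPM in control and 1310 and 1707 CPM in ex14D, a log2 fold change of 1.83 (standard error 0.21, adjusted p = 2.74e-06). Six2, which keeps kidney progenitors, was at 1.12 (adjusted p = 0.000904) and Eya4 at 0.87 (adjusted p = 0.00642). The fourth was Dach1, named after its value was seen, at 0.68 (adjusted p = 0.0294). The count for the network was 2 with library size alone, as without ex14D replicate 1 or without ex14D replicate 2. Without control replicate 2 it was 1, and with input in the model it was 0. For EZH2, 4 of the 12 were tested and 1 was lower, Six5 at -1.49 (adjusted p = 0.00325).

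The homeobox genes nearest to Pax6 and Pax7 in their homeodomain, the paired type without a paired box, were read next. Of 30 symbols listed, 29 have a row and 25 had an H3K27me3 peak over the promoter in all 4 libraries. Of 28 tested for H3K27me3, 16 were higher in ex14D and 0 lower, with a median of 0.96. Among the rises were Uncx (1.85), which acts in the somites, and Otx2 (1.52), which acts in the forebrain. Of 16 tested for EZH2, 11 were lower and 0 higher, with a median of -0.57, Gsc2 (-1.62) and Mixl1 (-1.31) among them. For H3K27me3, 14 were higher and 2 lower with library size alone, and with input in the model 2 were higher. Without control replicate 2, 6 were higher for H3K27me3, and without control replicate 1 or without control replicate 2, 0 were lower for EZH2. Another list held 11 symbols for cofactors and partners of Pax proteins, of which 10 have a row and 2 had a peak over the promoter in all 4 libraries. Of 6 tested for H3K27me3, 0 were higher and 2 lower, Tle3 (-1.73, adjusted p = 0.000358) and Tle2 (-1.27, adjusted p = 0.00113), both corepressors of the Groucho family and both named after their values were seen. Of 5 tested for EZH2, Tle3 alone was lower (-0.36, adjusted p = 0.0282). Whether any of these lists differs from the Pax genes was not tested.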

How the data were processed

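The authors aligned reads to mm10 with Bowtie (Bowtie2 in the submitters' processing notes) and counted them with HTSeq, and deposited unnormalized counts, which are whole reads for each gene. Broad peaks were called by the authors with MACS2, and the deposited score, fold enrichment (a ratio to background) and −log10 q-value are the caller's. hiddenDomains intervals for EZH2 were deposited as positions only. H3K27me3 hiddenDomains intervals were not used, since they run past the ends of mm10 chromosomes. Versions are not given in the sources used here.

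Rows naming no gene (92.0% to 98.0% of counted reads were on no feature in H3K27me3 and input libraries, 33.8% to 34.9% in EZH2 libraries, which had another 21.2% to 21.9% ambiguous) stayed out of library sizes. Genotypes were compared per antibody with edgeR 4.0.16 in R 4.3.3 (TMM, filterByExpr, quasi-likelihood F test, Benjamini-Hochberg over all genes tested, threshold 0.05), and standard errors are the log2 fold change over the square root of F. H3K27me3 was compared with input in a model of 4 group means. Of 24500 genes, 24357 were placed on GRCm38 by RefSeq symbols, and promoters are 1 kb windows centred on the first curated start. A peak or domain counted with any overlap. A pseudocount of 1 CPM was added before ratios. Promoter sequences are RefSeq's (GRCm38.p6).

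On simulated data with 200 changed genes, the share recovered at 2-fold and 4-fold was 44.0% and 100% for H3K27me3 (14507 genes). For EZH2 (13386 genes) it was 98.0% and 100%, and 2.70% and 3.88% of calls were false. For each antibody the simulation gave all genes and both genotypes the same spread, and changed only well-covered genes. The real EZH2 pairs differed in spread (chi-square over degrees of freedom 1.48 in control, 3.95 in ex14D). The shares therefore describe the simulation and not these libraries. Same-numbered libraries were checked for pairing, and their deviations correlated at -0.10 for H3K27me3 and -0.03 for EZH2. With 1 pair of deviations per antibody, these values cannot decide whether libraries of the same number were prepared together. All 9 members, their nearest protein-coding neighbours, the 2 most alike genes, and the largest and smallest called changes (up to 3 each way) of the Six-Eya-Dach and paired-type lists were to be named. Some results for single genes of these lists are not reported here. A list of cofactors and 10 promoters active in ES cells were also read. The members and lists were chosen with earlier results of these data known. Alternatives were DESeq2 1.42.0, other scalings, no filter, a replicate block, a model with input, other overlaps and each library left out. Python 3.11.15, pandas and numpy were used for the rest.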

Additional observations from a re-analysis of the deposited data

How the results depend on the processing

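Without control replicate 2, H3K27me3 was higher at 2 members in place of 6, and with the input libraries in the model at 0. Leaving out each library gave 2 to 6 members higher and 0 to 0 lower for H3K27me3, 8 to 9 above input in control and 8 to 8 in ex14D, and 0 to 6 lower and 0 to 0 higher for EZH2, where the 0 came without control replicate 1 or without control replicate 2. A group left with 1 library was taken to vary like the other group. With library size alone, 1 member (Pax4) had lower H3K27me3, Pax5 turned to -0.22, and Pax4 over input turned to -0.068 in control and -1.27 in ex14D. The H3K27me3 change of Pax8 lay between -0.25 and 0.13 with each library left out, 0.039 without control replicate 2 and 0.13 without ex14D replicate 2, in no case past the threshold. The cause was not tested.

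Under the replicate block, with the number as a term, 6 members were higher for H3K27me3 and 5 lower for EZH2, where Pax7 missed the threshold (adjusted p = 0.0501 from edgeR), and the block changed no other member's call. The same-numbered H3K27me3 libraries deviated in opposite directions (-0.10), and a crossed pairing, chosen after seeing the data, gave 6 members higher and 0 lower, and 1185 promoters higher and 795 lower in all. Counts over all H3K27me3 promoters went from 871 higher and 475 lower to 398 and 2176 with library size alone, 633 and 585 with all counted reads, 676 and 264 with DESeq2, and 27 and 11 with input in the model. Counts over all EZH2 genes went from 7 higher and 1056 lower to 47 higher with library size alone and 0 higher with DESeq2 (7 at an unadjusted p under 0.05). With any overlap of the gene, with at least 500 bp of the window or with peaks of q under 0.001, 8 members kept their peak and 8 their domain. Depth limits Pax4 most, at 16 to 32 H3K27me3 reads a library, and the 13 to 33 input reads limit every fold over input.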
